A study of Rattus norvegicus with 2 samples.

Results

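Sphingolipid and ceramide metabolism was examined in rat liver through a list of 10 genes that cover the synthesis of ceramide, its conversion to complex sphingolipids and its breakdown. The list was applied by gene symbol to every probe set annotated to exactly 1 gene. In this way 8 of the 10 genes were found, with 13 probe sets, among 14217 genes with 20826 such probe sets in all. Sptlc1 and Sptlc2, which encode subunits of serine palmitoyltransferase, were not analysed here.

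Liver RNA of male Wistar rats aged 2 months and weighing 250 to 300 g was hybridized to Affymetrix rat expression arrays, 1 for each group. Rats of the olive oil group were killed 4 h after an oral bolus of 5 ml extra virgin olive oil, stated as 16 ml per kg, which is less than that volume over the stated body weights gives. Rats of the fasted group received no fat, and rats of both groups had gone 18 h without food beforehand. How many livers contributed to an array, and whether the fasted rats were held for the further 4 h, is not given in the labels. The 2 arrays differ in fat meal and may differ in total time without other food, which cannot be told apart. A single array per group allows no test, so each difference below compares 2 arrays and carries no p-value and no error over animals.

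Sphingolipids are built on a sphingoid base that is made from serine and palmitoyl-CoA in the endoplasmic reticulum. The base is acylated and desaturated to ceramide, which the Golgi converts to sphingomyelin or glucosylceramide. Lysosomal enzymes return these lipids to ceramide and sphingosine, and phosphorylation of sphingosine gives the signalling lipid sphingosine 1-phosphate. Liver makes much of the ceramide and sphingomyelin that is secreted with lipoproteins.

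Values are signal intensities on a linear scale, and differences are log2 signal in the olive oil array minus log2 signal in the fasted array, after signals below 12.8 were raised to that floor. Probe sets with a mean log2 signal of at least 5.37 across the arrays, equal to a signal of 41.4, are called measured. Of the 13 probe sets 11 were measured, and each of the 8 genes had at least 1. A gene with several was represented by its brightest measured one. A fixed size of 1.5-fold, or 0.58 on the log2 scale, took the place of a test. As a measure of probe error, log2 differences of measured probe sets for one gene scattered with a pooled SD of 0.35 over 2290 genes. Among brighter probe sets, above the 75th percentile of mean log2 signal, it was 0.23 over 853 genes. This scatter holds no variation between rats and no offset between the arrays. Of 27 poly-A control probe sets, which follow the labelling step, 22 were lower in the olive oil array. Their median log2 difference was -0.22, and its part in the differences below was not tested.

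The main difference among the 8 genes was a higher signal of sphingomyelin synthase 1 after olive oil, 1.92-fold, while the other 7 genes lay within 1.5-fold. Of the genes of ceramide formation, Kdsr and Degs1 were slightly higher and Cers2 nearly equal. The genes of sphingolipid breakdown and of sphingosine phosphorylation, Smpd1, Asah1 and Sphk2, were each slightly lower. The glucosylceramide synthase gene Ugcg was 1.43-fold lower on a dim probe set, which counted as measured only through its higher signal in the fasted array.

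**Figure D1:**
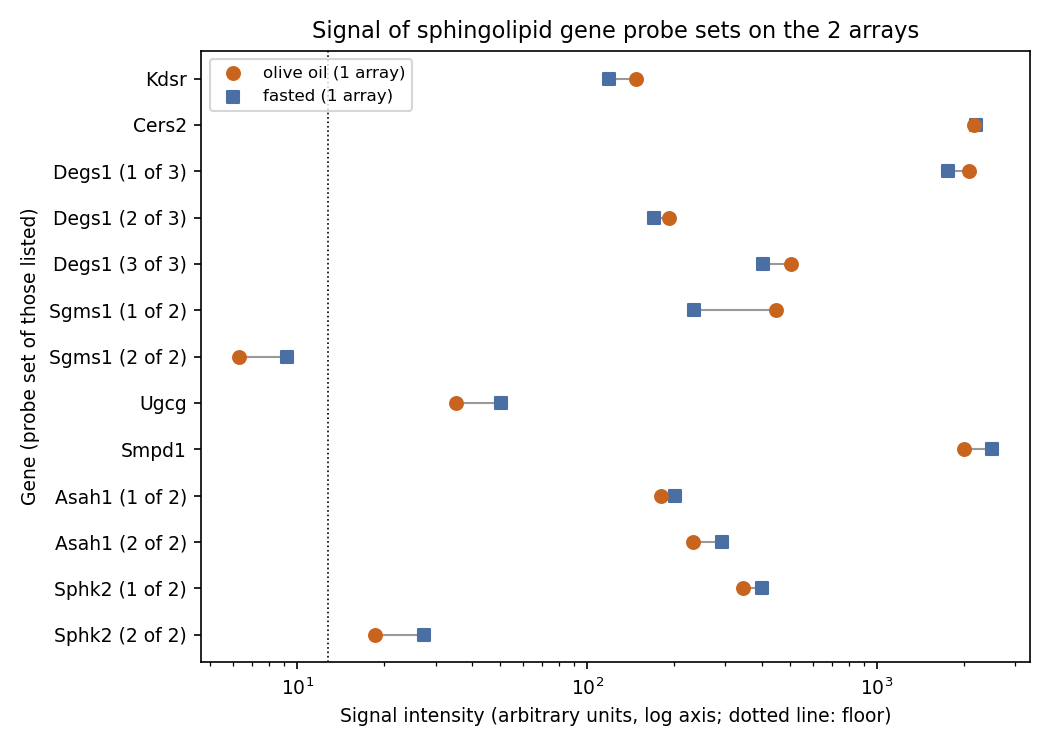
Signal intensity (log axis, arbitrary units) of each of the 13 probe sets of the 8 sphingolipid genes, with circles for the olive oil array and squares for the fasted array, 1 array each, and a dotted line at the floor of 12.8. The Sgms1 probe set at 448 and 233.1 has the widest gap above the floor, and the other Sgms1 probe set lies below the floor on both arrays.

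Kdsr encodes the reductase that turns 3-ketodihydrosphingosine into dihydrosphingosine, the step after serine palmitoyltransferase. Its single probe set had a signal of 147.4 in the olive oil array and 119.3 in the fasted array. The log2 difference was 0.31, or 1.24-fold higher, and 21.0% of 9209 measured genes had a more positive difference.

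Cers2 encodes the ceramide synthase that attaches very long acyl chains, the main ceramide synthase of liver. Its signal was 2159 in the olive oil array and 2191 in the fasted array. The log2 difference of -0.02 was close to the median of all measured genes, -0.01, and 95.4% of them differed by more in size.

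Degs1 encodes the desaturase that turns dihydroceramide into ceramide, and it was the best covered gene, with 3 measured probe sets. The brightest had a signal of 2083 in the olive oil array and 1762 in the fasted array. A further probe set had 505.6 in the olive oil array and 404 in the fasted array. The dimmest had 192.1 in the olive oil array and 170.7 in the fasted array. Each of the 3 was higher after olive oil, with log2 differences of 0.24, 0.32 and 0.17. The range of these 3 values was 0.15. Each was below the overall probe scatter of 0.35 (SD), and those of 0.24 and 0.32 were above the SD of 0.23 among brighter probe sets.

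Sgms1 encodes the Golgi enzyme that transfers phosphocholine from phosphatidylcholine to ceramide, which yields sphingomyelin and diacylglycerol. Its measured probe set had a signal of 448 in the olive oil array and 233.1 in the fasted array. The log2 difference of 0.94, or 1.92-fold higher, was 2.71 times the SD between probe sets of one gene. Of 9209 measured genes, 343 or 3.72% had a more positive difference. A second Sgms1 probe set had 6.3 in the olive oil array and 9.2 in the fasted array. Both values are below the floor, so this probe set gave no difference, and the gene's result rests on 1 probe set.

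Ugcg encodes the enzyme that adds glucose to ceramide and so opens the route to gangliosides and other glycosphingolipids. Its signal was 35.2 in the olive oil array and 50.4 in the fasted array. The log2 difference was -0.52, or 1.43-fold lower, and 12.4% of measured genes had a more negative one. The mean log2 signal of 5.40 passed the filter on dim probe sets narrowly. It did so only through the fasted array, in which Ugcg was higher, since the olive oil signal was below the cut of 41.4. Under median centring of each array the difference was -0.59, just past 1.5-fold, and with an offset of 16 in place of the floor it was -0.38.

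Smpd1 encodes acid sphingomyelinase, which splits sphingomyelin into ceramide and phosphocholine in the lysosome. Its signal was 1994 in the olive oil array and 2495 in the fasted array, a log2 difference of -0.32, or 1.25-fold lower. Asah1 encodes acid ceramidase, which splits ceramide into sphingosine and a fatty acid in the same compartment. Its brighter probe set had 231 in the olive oil array and 291.8 in the fasted array, and the other had 179.5 in the olive oil array and 200.4 in the fasted array. Both Asah1 probe sets were lower after olive oil, with log2 differences of -0.34 and -0.16.

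Sphk2 encodes one of the kinases that phosphorylate sphingosine. Its measured probe set had 345.4 in the olive oil array and 399.8 in the fasted array, a log2 difference of -0.21. A dimmer one, not counted as measured, had 18.6 in the olive oil array and 27.4 in the fasted array, with a log2 difference of -0.56. Both were lower after olive oil. In the 3 genes of breakdown and sphingosine phosphorylation, the 4 measured probe sets were therefore lower, each by less than the SD of 0.35, and Smpd1 and the brighter Asah1 probe set by more than the SD of 0.23 among brighter probe sets. Of all measured genes 51.7% were lower.

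**Figure D2:**
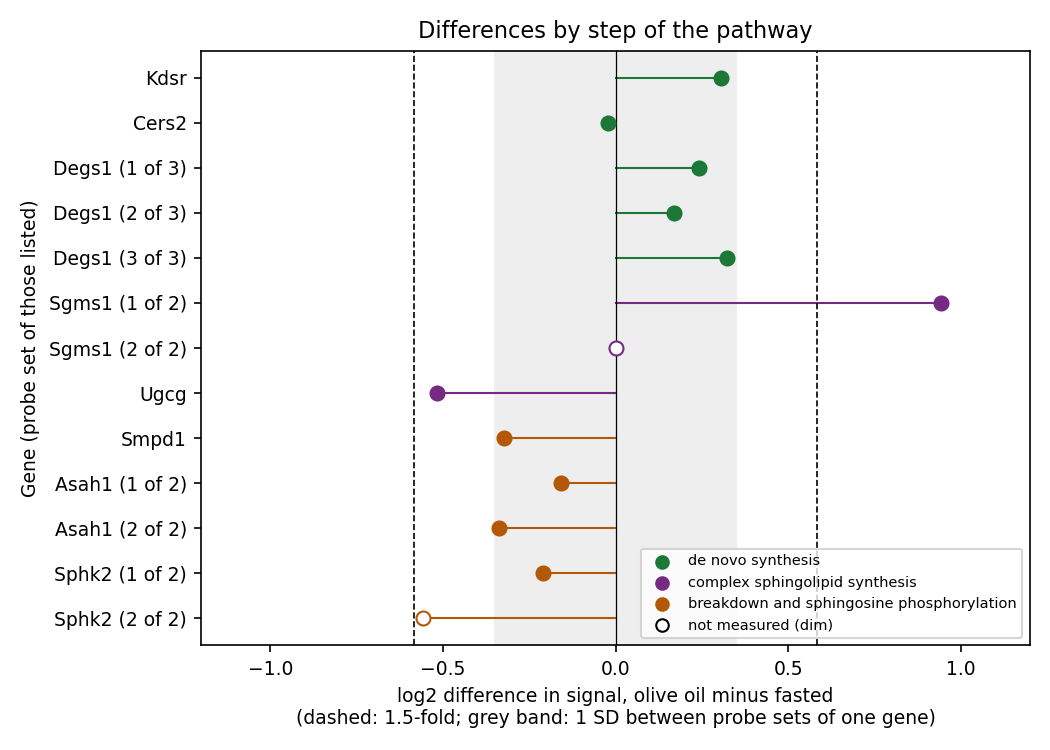
Log2 difference in signal, olive oil minus fasted, for the 13 probe sets, coloured by step of the pathway, with open circles for probe sets that were not measured, dashed lines at 1.5-fold and a grey band of 1 SD (0.35) between probe sets of one gene. Sgms1 at 0.94 is the sole point outside the dashed lines, the Kdsr and Degs1 points are right of 0, and the Smpd1, Asah1 and Sphk2 points are left of it. The open Sgms1 point is at 0 because both of its signals were raised to the floor.

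Counts over the 8 genes were near those over all genes. Sgms1 was the 1 gene of 8 that was at least 1.5-fold higher, and 9.44% of all measured genes were so. None of the 8 genes was at least 1.5-fold lower, and 10.1% of all measured genes were so. After each array was centred on its median, the split was 1 higher and 1 lower. In either direction, 12.5% of the 8 genes and 19.5% of all measured genes reached 1.5-fold. None of the 8 genes reached 2-fold. Of all measured genes 3.21% were 2-fold higher and 2.92% were 2-fold lower, together 6.14%, a share at which none in 8 is no result about these genes. The difference was positive in 3 of the 8 genes and in 48.3% of all measured genes, and negative in 5 of the 8 genes and in 51.7% of all. Among the 5 was Ugcg, which passed the filter on dim probe sets only through the array in which it was higher. The median log2 difference over the 8 genes was -0.12 and that over all measured genes -0.01. The mean over the 8 genes lay on the other side of 0, at 0.0098.

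**Figure D3:**
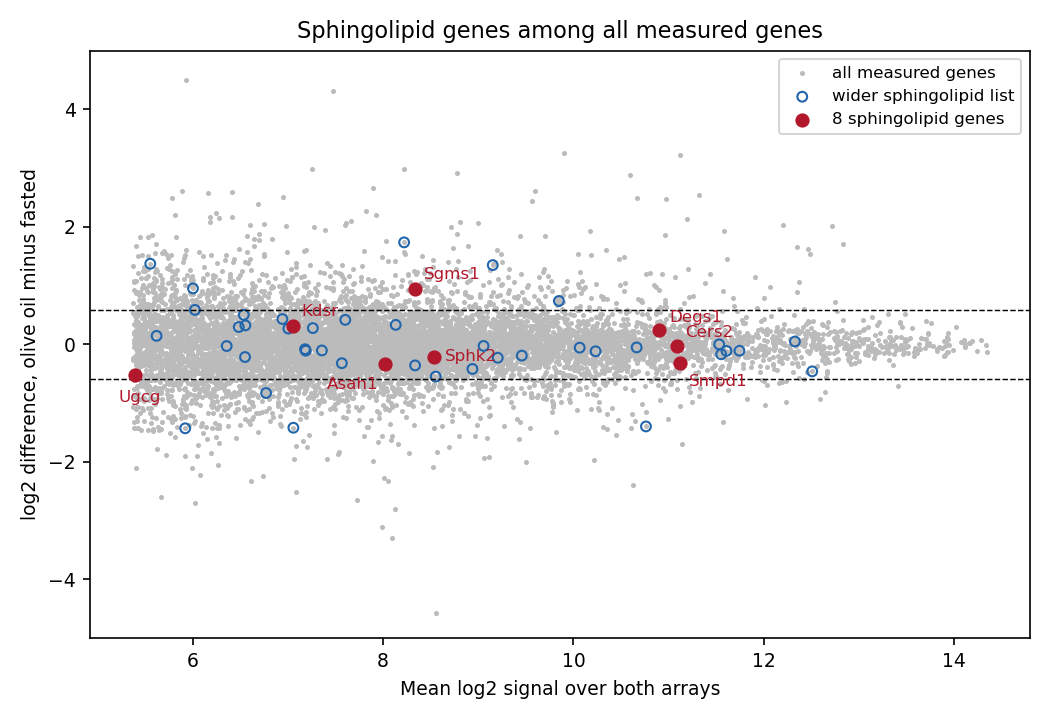
Log2 difference, olive oil minus fasted, against the mean log2 signal over both arrays for 9209 measured genes (grey), 40 measured genes of a wider sphingolipid list (open circles) and the 8 sphingolipid genes (filled circles), with dashed lines at 1.5-fold. Sgms1 lies above the upper line, and the other 7 genes lie between the lines within the bulk of the grey points.

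Differences between opposed steps of the pathway do not depend on the overall brightness of the arrays. The pairs were chosen after the values were seen. The log2 difference of Sgms1, which makes sphingomyelin, exceeded that of Smpd1, which breaks it down, by 1.27, so that the ratio of their signals was 2.41-fold higher in the olive oil array. Sgms1 and Ugcg both use ceramide as substrate, and their log2 differences were 1.46 apart, a change of 2.75-fold in the ratio. The Ugcg probe set passed the filter on dim probe sets only through the fasted array, in which it was higher. Degs1, which forms ceramide, and Asah1, which degrades it, were 0.58 apart. From the scatter between probe sets of one gene, such a gap has an SD of 0.49. Both Sgms1 gaps contain the largest difference of the 8 genes, so they are descriptions only. The gaps also depend on which gene stands for a step. In the wider list below, the sphingomyelinase gene Smpd3 had a log2 difference of 0.95 and the ceramidase gene Acer2 had 1.74.

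The rest of the pathway was described with a list of 67 further genes written from pathway knowledge, of which 56 had a probe set and 40 were measured. In the olive oil array 6 of the 40 were higher and 4 lower by 1.5-fold or more, together 25% beside the 19.5% of all measured genes. Among the 10 were Smpdl3b and S1pr2, which passed the filter on dim probe sets only through the array in which each was higher. With a stricter filter, at the 75th percentile of mean log2 signal, 3 were higher and 1 lower of 22 measured. Of all 5505 genes measured at that filter, 386 were higher and 409 lower. Under median centring the split of the 40 was 5 higher and 5 lower. That of all 9209 measured genes was 700 higher and 1168 lower. Over the 40 genes the median log2 difference was -0.06 and the mean 0.02, on opposite sides of 0.

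Around the ceramide-forming genes, the wider list showed 1 large difference. Cers6, a ceramide synthase that prefers palmitoyl-CoA, had 908.4 in the olive oil array and 356.6 in the fasted array, 2.55-fold higher. Cers2, which uses longer acyl chains, was nearly equal as given above, and the log2 difference of Cers6 was 1.35 beside -0.02 for Cers2. Sptssa, a small subunit of serine palmitoyltransferase, had 3303 in the olive oil array and 3564 in the fasted array, a log2 difference of -0.11. The 3 measured genes of that enzyme's subunits and regulators were all within 1.5-fold, as were 7409 of all 9209 measured genes. Of the 3, Ormdl3, named after its values were seen, went in both directions. Its log2 difference was -0.23 on its brightest probe set and 0.55 on its other measured one. Cert1, the protein that carries ceramide from the endoplasmic reticulum to the Golgi enzyme Sgms1, differed by -0.03 on the log2 scale.

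Next to Sgms1 and Smpd1, other genes of sphingomyelin turnover went in both directions. Smpd3, a neutral sphingomyelinase, had 89.2 in the olive oil array and 46.1 in the fasted array, 1.93-fold higher. Smpdl3b, a membrane-bound relative of acid sphingomyelinase, had 75.6 in the olive oil array and 29.2 in the fasted array, 2.59-fold higher on a dim probe set. Unlike these, Samd8, which makes the ethanolamine analogue of sphingomyelin, had 81.9 in the olive oil array and 145.6 in the fasted array on its brightest probe set, 1.78-fold lower, and a log2 difference of -0.10 on another. Smpdl3a, a secreted relative of acid sphingomyelinase, differed by -0.11 on the log2 scale.

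Acer2, a ceramidase of the Golgi, had the largest difference among the measured genes of the wider list. It stood at 544.7 in the olive oil array and 163.5 in the fasted array, 3.33-fold higher. A second probe set had 352.5 in the olive oil array and 132.1 in the fasted array, with a log2 difference of 1.42. The dimmest, not counted as measured, had 56.7 in the olive oil array and 4.2, below the floor, in the fasted array. All 3 were higher after olive oil, whereas the lysosomal ceramidase gene Asah1 was lower on both of its probe sets. The log2 difference of Acer2 was 1.74 and that of Asah1 -0.34.

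**Figure D4:**
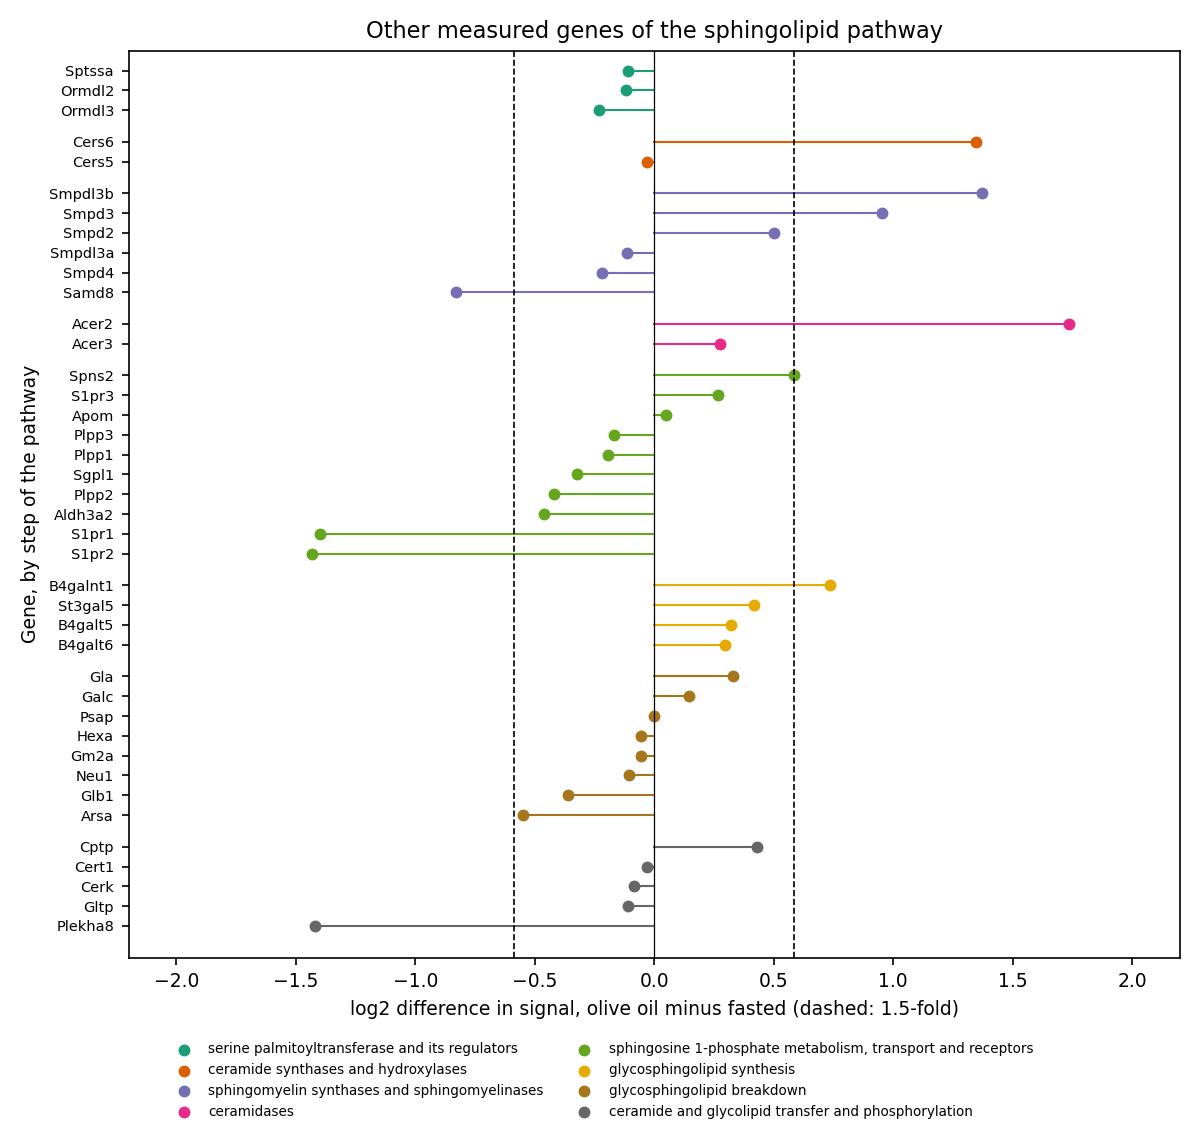
Log2 difference in signal, olive oil minus fasted, of the brightest measured probe set of the 40 other measured genes of the pathway, grouped and coloured by step, with dashed lines at 1.5-fold. Acer2 at 1.74 is farthest to the right, and S1pr2 at -1.43, Plekha8 at -1.42 and S1pr1 at -1.40 are farthest to the left.

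Downstream of Sphk2, 3 receptor genes for sphingosine 1-phosphate were measured, of which S1pr1 and S1pr2 had lower signals after olive oil and S1pr3 did not. S1pr3, named after its values were seen, had 140.9 in the olive oil array and 117 in the fasted array, a log2 difference of 0.27. S1pr1 had 1070 in the olive oil array and 2821 in the fasted array, 2.64-fold lower. Its other probe set was dim on both arrays, at 15.4 in the olive oil array and 14.7 in the fasted array. S1pr2 had 36.9 in the olive oil array and 99.5 in the fasted array, 2.70-fold lower and dim. Spns2, an exporter of sphingosine 1-phosphate, had a log2 difference of 0.59, barely past 1.5-fold, on the brighter of its probe sets and of 0.09 on the dimmer. Aldh3a2, which oxidises the aldehyde left by the final breakdown of this lipid, had 4968 in the olive oil array and 6839 in the fasted array, a log2 difference of -0.46.

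Beyond Ugcg, the 4 measured genes of glycosphingolipid synthesis had a positive difference, as did 48.3% of all measured genes. Of the 4, 1 was at least 1.5-fold higher, as were 9.44% of all measured genes. B4galnt1, which builds complex gangliosides, was the highest, at 1190 in the olive oil array and 713.4 in the fasted array, 1.67-fold higher. The other 3 were St3gal5, B4galt5 and B4galt6, named after their values were seen, with log2 differences of 0.42, 0.32 and 0.29. Plekha8, which carries glucosylceramide within the Golgi, had 81.4 in the olive oil array and 218 in the fasted array on its brightest probe set, 2.68-fold lower, and a log2 difference of -0.15 on its other measured one. A further Plekha8 probe set, not counted as measured, had 42.2 in the olive oil array and 29.5 in the fasted array, the opposite direction. The 8 measured genes of glycosphingolipid breakdown lay within 1.5-fold, as did 7409 of all 9209 measured genes. Among the 8 was Psap, the precursor of the saposins that present these lipids to lysosomal enzymes, with a log2 difference of -0.0016.

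Marker genes of hepatocytes were bright on both arrays, for instance Alb at 17984 in the olive oil array and 17154 in the fasted array. Summed over the 6 measured hepatocyte markers, the signal was 76784 in the olive oil array and 72618 in the fasted array. The difference was positive in 3 of the 6 and negative in 3, with a median of 0.03 on the log2 scale. The largest was that of Tat, at 6020 in the olive oil array and 3068 in the fasted array. Of 4 adipocyte markers only Fabp4 was measured, at 175.2 in the olive oil array and 29.4 in the fasted array. Fabp4 passed the filter on dim probe sets only through the olive oil array, in which it was higher. The others went in both directions on dim probe sets. Adipoq stood at 28.2 in the olive oil array and 3.2, below the floor, in the fasted array. Lep had 14 in the olive oil array and 16.8 in the fasted array. A Plin1 probe set had 55.3 in the olive oil array and 15.3 in the fasted array. Another had 4.4 in the olive oil array and 11.3 in the fasted array, both below the floor. Of 6 leukocyte markers 4 were measured, with a sum of 2011 in the olive oil array and 1844 in the fasted array, and they went in both directions. Among them S100a9 had 253.1 in the olive oil array and 62.9 in the fasted array, S100a8 had 75.7 in the olive oil array and 32 in the fasted array, and Ptprc had 108.3 in the olive oil array and 158.6 in the fasted array. S100a8 likewise passed the filter on dim probe sets only through the olive oil array, in which it was higher. The log2 difference of Cd74, the other measured leukocyte marker, was -0.02. Of 5 endothelial markers 4 were measured, with a sum of 4299 in the olive oil array and 3855 in the fasted array. The difference was positive in 2 of the 4 and negative in 2. Lyve1 had 2741 in the olive oil array and 1798 in the fasted array, and Kdr had 966 in the olive oil array and 1409 in the fasted array. For Kupffer cells 4 of 6 markers were measured, with a sum of 2553 in the olive oil array and 2206 in the fasted array, and they went in both directions. For stellate cells 6 of 6 were measured, with 1069 in the olive oil array and 1132 in the fasted array. The difference was positive in 2 of these and negative in 4. Among the 4, Reln and Col1a1 were each at -0.03 on the brightest probe set. On their other measured probe sets they were at 0.46 and 0.45. Pdgfrb, also among the 4, was at -0.47. Acta2 had 69.3 in the olive oil array and 43.6 in the fasted array, and Lrat had 122 in the olive oil array and 183.6 in the fasted array. For cholangiocytes 2 of 5 were measured, with 168.7 in the olive oil array and 226.5 in the fasted array. For erythroid cells 2 of 3 were measured, with 9032 in the olive oil array and 9333 in the fasted array. No marker probe set had a signal of 0. In whole liver, more cells of a type and more RNA per cell cannot be told apart. The part of these markers in the differences of Sgms1 and the other sphingolipid genes was not tested. RNA integrity, read as the 3' over 5' signal of beta-actin control probe sets, stood at 3.20 in the olive oil array and 2.63 in the fasted array. For Gapdh the same ratio was 1.34 in the olive oil array and 1.28 in the fasted array, and the part of RNA integrity was not tested either.

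The values of the 8 genes were recomputed under other settings for scaling, floor, filter and choice of probe set. Sgms1 stayed past 1.5-fold in all 10 settings, between 0.87 and 0.96 on the log2 scale. The signs of all 8 genes were those given above in every setting that measured them. Only the scalings could have turned a sign, or for Degs1 and Asah1 also the mean over probe sets. Cers2 ranged from -0.09 to -0.01, next to 0 throughout, and Ugcg was the sole gene that crossed 1.5-fold.

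**Figure D5:**
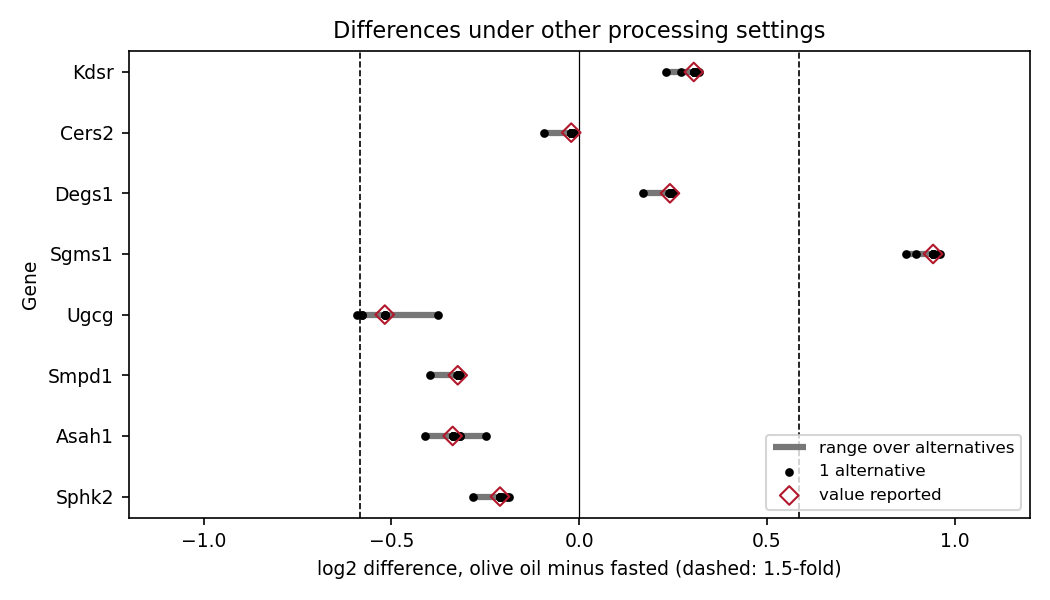
Log2 difference, olive oil minus fasted, of the 8 sphingolipid genes as reported (diamonds) and under each other setting that measured the gene (dots, with a bar for their range), with dashed lines at 1.5-fold. No bar crosses 0, Sgms1 stays right of the upper line, and the Ugcg bar from -0.59 to -0.38 touches the lower line.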

How the data were processed

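The table deposited by the authors holds linear signal intensities, 1 for each probe set on each array. Per the submitters' processing notes they came from Affymetrix Expression Console, whose algorithm and version are not given in the sources used. Trimmed by 2% at each end, the mean signal was 200.1 for either array, so the deposited intensities may have been scaled to a common level; such a scaling assumes that most transcripts do not shift. There is no detection call, and the number of arrays limits the precision.

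After 57 control probe sets were set aside, 31042 remained. Signals below the 25th percentile were raised to it, log2 was taken, and probe sets at or above the median mean log2 signal (15521) counted as measured. Symbols came from the platform annotation, updated by gene ID through RefSeq's GRCr8 gene table for 20758 of 20826 single-gene probe sets; 436 with several genes and 9780 with none were not named. The groups follow the sample titles.

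Genes named were the listed ones, every gene of the wider list at least 1.5-fold different, and the brightest gene of each of its groups; others are marked. The members and lists were chosen with earlier results of these data known. Alternatives were median centring, quantile and loess scaling, other floors and filters, the mean over probe sets, leaving out shared-transcript suffixes, and 2-fold and 3-fold limits. The functions were tested on simulated arrays. Python 3.11.15, numpy 2.4.6, pandas 2.3.3, statsmodels 0.14.6 and matplotlib 3.10.9 were used.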

Additional observations from a re-analysis of the deposited data

How the results depend on the processing

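Of the 8 listed genes, 1 was at least 1.5-fold higher and none lower, and 0 were higher at a limit of 2-fold or of 3-fold. With the arrays centred on their medians 1, Ugcg, was lower. This scaling shifted the median difference over all measured genes by -0.07. Under quantile and loess scaling Ugcg was at -0.578 and -0.577, just short of 1.5-fold. Their median of -0.12 ranged from -0.19 to -0.02 over 10 settings, and that of the wider list from -0.13 to -0.03. In the wider list, 6 genes were higher and 4 lower at 1.5-fold. Of its 40 genes, 3 were higher and 3 lower at 2-fold, and 1 was higher and 0 lower at 3-fold. Of all 9209 measured genes, 296 were higher and 269 lower at 2-fold, and 73 higher and 49 lower at 3-fold. With a filter at the 75th percentile, 3 were higher and 1 lower among 22 genes, and 9 were higher and 7 lower among 56 without a filter, since fewer or more genes were counted. Over all genes, 386 were higher and 409 lower among 5505 with that filter. Without a filter, 1821 were higher and 1766 lower among 14217. Over all measured genes, 869 higher and 931 lower became 700 and 1168 with centring on the medians. Spns2 was under 1.5-fold in 6 settings and Samd8 in 1, the mean over probe sets (-0.47). No paired analysis was possible because each group has 1 array. Without replicates, none could be left out. The scatter between probe sets of one gene was 0.23 (SD) among brighter probe sets and 0.35 over all measured ones, and the probe sets of Ugcg, S1pr2 and Smpdl3b are dim.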
